A study of Homo sapiens with 8 samples.

Results

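The genes of fibronectin and 9 further matrix glycoproteins were examined in U2OS cells, a human osteosarcoma line, after the kinase CDK9 was silenced. They are FN1, TNC, THBS1, THBS2, POSTN, SPARC, TGFBI, FBN1, FBN2 and VCAN, taken by name, and each was read by its 1 probe set with a single gene symbol. They are 10 of the 18417 genes tested. The CDK9 Knock Down group (CDK9 siRNA below) holds 4 arrays and the Nonspecific siRNA group (control siRNA below) holds 4. Cells of both groups came from the same line, were transfected with siRNA at 10 nM and were collected after 72 h, so both carry the transfection, and the study's text calls the cultures biological replicates. The sources used here do not say how many siRNA sequences targeted CDK9. A decrease of RNA per cell and a decrease in the cells that express a gene cannot be told apart in such bulk RNA.

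Fibronectin is a large secreted dimer that cells pull into fibrils through integrins, and other matrix proteins are laid down on those fibrils. Thrombospondins, tenascin-C, SPARC, periostin and TGFBI are matricellular proteins, which tune adhesion and growth factor access more than they bear load. Fibrillins build microfibrils that hold latent TGF-beta, and versican is a proteoglycan that binds hyaluronan. Bone-forming cells and the osteosarcomas derived from them secrete many of these proteins. CDK9 is the kinase that releases paused RNA polymerase II into elongation.

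Of the 10 genes, 3 fell with CDK9 siRNA (FN1, FBN1 and THBS1) and 1 rose (TGFBI). FN1 fell to 57.0% of its control signal, which was the one change of 1.5-fold or more, while FBN1 fell to 77.5%, THBS1 fell to 80.5% and TGFBI rose to 118%. The other 6 did not pass, and their differences lay between -0.28 and 0.22 on the log2 scale. Passing means an adjusted p under 0.05 in limma over all 18417 genes (two-sided, Benjamini-Hochberg). By that rule 7.47% of all genes fell and 6.73% rose. At 1.5-fold or more it was 0.749% and 0.57%. The median log2 difference of the 10 genes was -0.24, beside -0.0016 over all genes tested. It was -0.02 in the 1 array per group numbered 1 and -0.24 in the arrays numbered 2 to 4, beside 0.0031 and -0.0055 over all genes.

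The 2 arrays numbered 1, 1 per group, are called array set 1, and the 6 arrays numbered 2 to 4 are called array set 2. The deposited columns of set 1 lay lower: the medians were 5.85 in the CDK9 siRNA array and 5.80 in the control array of set 1, and 6.99 to 7.03 in CDK9 siRNA arrays and 7.02 to 7.04 in control arrays of set 2. The model therefore carried a term for the array set, and levels should be compared within a set. Without that term limma passed 0 genes, and an unadjusted p under 0.05 was reached by 28 higher and 23 lower genes. With that term 1239 genes were higher and 1376 lower. CDK9 itself read 8.0, 9.03, 9.09 and 9.04 in the CDK9 siRNA arrays, against 9.8, 10.86, 10.89 and 10.86 in the control arrays, which checks the labels. Its signal was 28.4% of control. Of 12 osteoblast lineage and mesenchymal markers measured, 8 had a mean outside the lowest 30% of genes (means below 6.14, called dim here), among them RUNX2, MSX2, COL1A1 and VIM, while ALPL, DLX5, IBSP and PTH1R were dim. All 5 measured leukocyte markers, 5 of 6 endothelial markers and 3 of 6 epithelial markers were dim. The epithelial markers that were not dim were KRT14 (mean 7.70), CLDN4 (6.82) and KRT19 (6.55), and the endothelial one was CLDN5 (7.33).

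The promoters of the 4 genes that passed are shown because they are the members whose RNA moved. The stretches are the 250 bases before the annotated start, from RefSeq on GRCh38.p14, and capitals mark matches to any of 6 short motifs on either strand.
FN1, chr2:215436069-215436318, minus strand: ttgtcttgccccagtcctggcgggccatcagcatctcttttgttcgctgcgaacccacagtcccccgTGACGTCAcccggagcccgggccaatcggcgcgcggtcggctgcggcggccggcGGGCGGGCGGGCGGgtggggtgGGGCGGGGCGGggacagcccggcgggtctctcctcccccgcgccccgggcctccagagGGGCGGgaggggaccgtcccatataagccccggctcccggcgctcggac
THBS1, chr15:39580829-39581078, plus strand: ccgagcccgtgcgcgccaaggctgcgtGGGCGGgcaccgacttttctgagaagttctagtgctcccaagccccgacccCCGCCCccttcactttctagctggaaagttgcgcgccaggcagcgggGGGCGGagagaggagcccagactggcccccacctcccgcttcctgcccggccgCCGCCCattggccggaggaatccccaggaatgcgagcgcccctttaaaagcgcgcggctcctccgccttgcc
FBN1, chr15:48644971-48645220, minus strand: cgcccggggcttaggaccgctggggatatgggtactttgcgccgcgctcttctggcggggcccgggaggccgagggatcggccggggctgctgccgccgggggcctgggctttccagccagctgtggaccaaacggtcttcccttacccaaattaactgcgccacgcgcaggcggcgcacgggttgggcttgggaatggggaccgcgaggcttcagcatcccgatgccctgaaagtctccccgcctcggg
TGFBI, chr5:136028738-136028987, plus strand: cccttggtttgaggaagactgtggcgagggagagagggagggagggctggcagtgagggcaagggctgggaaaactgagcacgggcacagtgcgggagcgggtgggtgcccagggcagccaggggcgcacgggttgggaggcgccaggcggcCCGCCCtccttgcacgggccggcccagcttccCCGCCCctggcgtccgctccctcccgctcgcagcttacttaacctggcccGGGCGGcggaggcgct

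The 6 motifs were searched from 250 bases before to 50 after the start, and all 10 genes had an entry. A cAMP response element was searched for by most of its letters, TGACGTC. The GC box was read as GGGCGG and the TATA box as TATAAA. An AP-1 motif was TGACTCA in this search, while that of SMAD proteins was CAGACA. For TEAD factors the letters ACATTCC were taken. FN1 held the cAMP response motif on both strands, overlapping, 183 and 182 bases before the start. That motif stands in 3.63% of the 27305 promoters of the table and in 1 of these 10. FN1 also held 6 GC boxes on its own strand, some of them overlapping. A GC box was present in 6 of the 10 genes (FN1, TNC, THBS1, TGFBI, FBN2 and VCAN) and in 44.6% of all promoters. THBS2 and POSTN held a TATA box 29 bases before the start (12% of promoters), POSTN an AP-1 motif (4.92%), SPARC a TEAD motif (3.48%), and TNC and THBS2 a SMAD motif (16.8%). FBN1 held none of the 6. Only these exact letters were matched, so near matches, such as the letters tataag in the FN1 stretch, were not counted. A match is a description of letters and not evidence of binding.

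FN1 encodes fibronectin. Its probe set (8058765) read 11.05, 11.86, 11.54 and 11.81 in CDK9 siRNA replicates 1 to 4, against 11.66, 12.65, 12.66 and 12.54 in control siRNA replicates 1 to 4. All 3 CDK9 siRNA arrays of set 2 lay below all 3 control arrays, and the set 1 pair had the same order. FN1 thus differed by -0.81 ± 0.08 on the log2 scale (SE, n = 4 per group, limma adjusted p = 0.000517), and the share of control signal had a 95% confidence interval of 49.9 to 65.0%. In the order of all 18417 genes by log2 difference, FN1 was the 57th lowest. The set 1 pair differed by -0.61, and the 3 arrays per group of set 2 by -0.88. CDK9 siRNA replicate 3 was the lowest of its set. The probe set is annotated with 6 RefSeq mRNAs, so splice forms of fibronectin were not resolved.

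**Figure D1:**
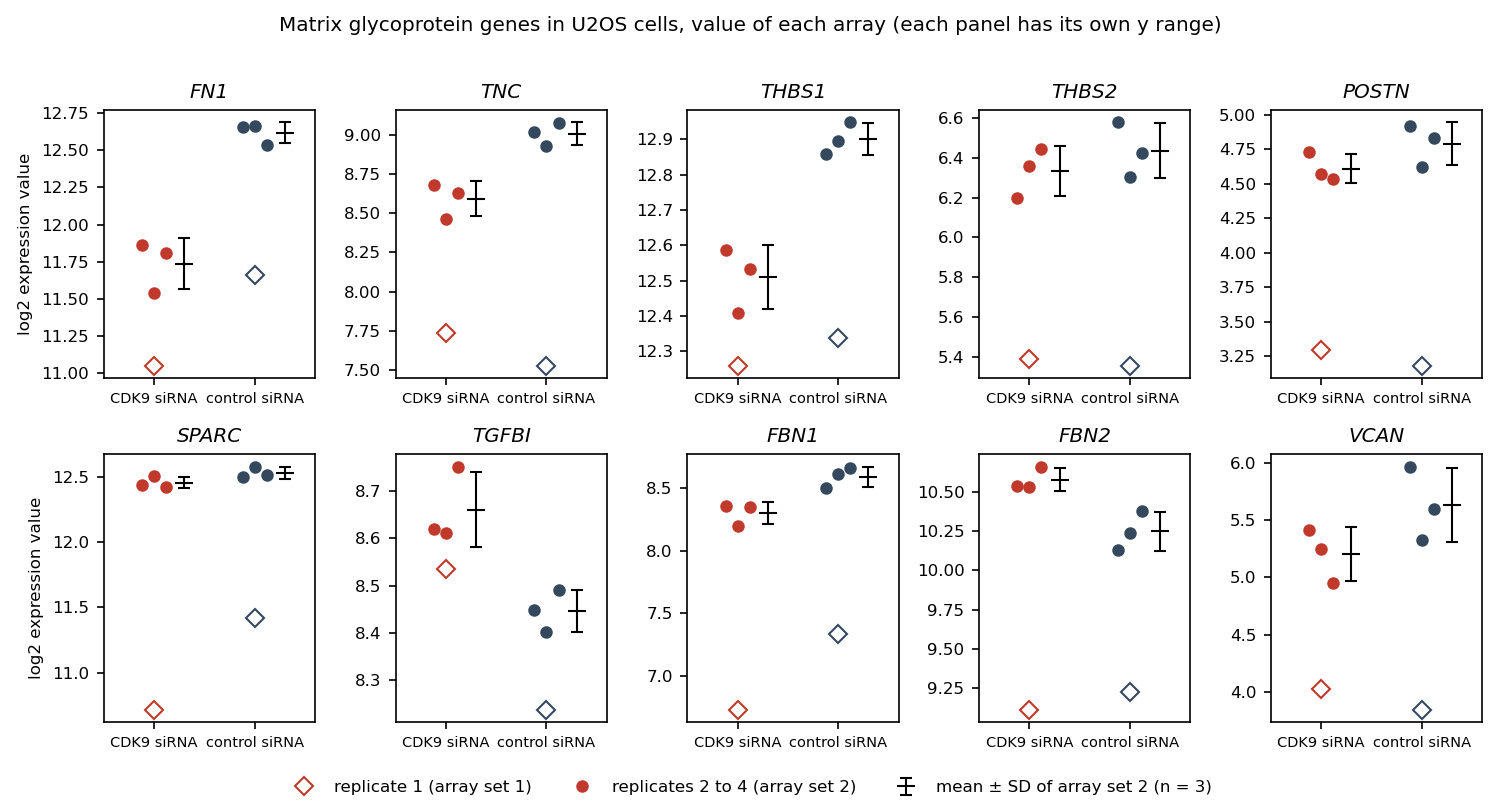
Deposited log2 expression value (y axis) of the 10 matrix glycoprotein genes in each array, CDK9 siRNA left and control siRNA right, with open diamonds for replicate 1 (array set 1), filled circles for replicates 2 to 4 (array set 2), and bars for the mean ± SD of array set 2 (n = 3). In array set 2 the groups do not overlap for FN1, TNC, THBS1 and FBN1 (CDK9 siRNA lower) or for TGFBI and FBN2 (CDK9 siRNA higher).

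Thrombospondin-1 and thrombospondin-2 are trimeric matricellular proteins that bind the receptors CD36 and CD47, and thrombospondin-1 can activate latent TGF-beta. THBS1 read 12.26, 12.59, 12.41 and 12.53 in CDK9 siRNA arrays, against 12.34, 12.86, 12.90 and 12.95 in control arrays. The groups did not overlap in set 2, and the set 1 pair differed by -0.08. THBS1 differed by -0.31 ± 0.07 on the log2 scale (SE, n = 4 per group, limma adjusted p = 0.0185). The call was lost without CDK9 siRNA replicate 3 (adjusted p = 0.0517), control replicate 3 (0.0615) or control replicate 4 (0.0617), while the difference stayed between -0.39 and -0.26 when any 1 array was left out. THBS2, a dim gene, read 5.39, 6.20, 6.36 and 6.44 in CDK9 siRNA arrays, against 5.36, 6.58, 6.30 and 6.42 in control arrays. Its groups overlapped, and the difference of -0.07 ± 0.08 (SE) did not pass (limma adjusted p = 0.633). It was -0.01 without CDK9 siRNA replicate 2 or without control replicate 2, and -0.11 without control replicate 3.

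TNC encodes tenascin-C, a many-armed glycoprotein that loosens cell attachment to fibronectin. It read 7.73, 8.68, 8.47 and 8.63 in CDK9 siRNA arrays, against 7.53, 9.02, 8.93 and 9.08 in control arrays. The set 2 groups did not overlap and the CDK9 siRNA arrays were the lower ones, whereas in set 1 the CDK9 siRNA array was higher by 0.21. With both sets the difference was -0.26 ± 0.11 (SE, n = 4 per group) and did not pass (limma adjusted p = 0.156). In array set 2 alone it was -0.41 ± 0.07 (SE, n = 3 per group) and passed (limma adjusted p = 0.00822).

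TGFBI and POSTN encode secreted proteins with fasciclin domains that bind integrins and collagens, and TGFBI is named for its induction by TGF-beta. TGFBI read 8.53, 8.62, 8.61 and 8.75 in CDK9 siRNA arrays, against 8.24, 8.45, 8.40 and 8.49 in control arrays. Within each set, every CDK9 siRNA array was higher than every control array. TGFBI differed by 0.23 ± 0.05 on the log2 scale (SE, n = 4 per group, limma adjusted p = 0.0206), a rise of 1.18-fold (95% confidence interval 1.08 to 1.28). The set 1 pair gave 0.30 and set 2 gave 0.21. The call was lost without CDK9 siRNA replicate 4 (adjusted p = 0.0538), control replicate 2 (0.0538) or control replicate 3 (0.0745), with differences of 0.21 to 0.26 when any 1 array was left out. POSTN, a dim gene whose product is periostin, read 3.30, 4.73, 4.57 and 4.53 in CDK9 siRNA arrays, against 3.18, 4.92, 4.62 and 4.83 in control arrays. The groups overlapped, and the difference of -0.11 ± 0.09 (SE) did not pass (limma adjusted p = 0.478). It was -0.05 without control replicate 2, -0.07 without CDK9 siRNA replicate 4 and -0.18 without either replicate 1 array.

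Fibrillin-1 and fibrillin-2 form the microfibrils of elastic and bone matrix, and fibrillin-2 is best known from developing tissue. FBN1 read 6.73, 8.36, 8.20 and 8.35 in CDK9 siRNA arrays, against 7.34, 8.50, 8.61 and 8.66 in control arrays. The set 2 groups did not overlap, and the set 1 pair had the same order. FBN1 differed by -0.37 ± 0.07 on the log2 scale (SE, n = 4 per group, limma adjusted p = 0.0112). The set 1 pair gave -0.60 and set 2 gave -0.29. FBN2 read 9.11, 10.54, 10.53 and 10.66 in CDK9 siRNA arrays, against 9.22, 10.13, 10.24 and 10.38 in control arrays. The CDK9 siRNA arrays were the higher ones in set 2, with no overlap, and the lower one in set 1. With both sets the difference was 0.22 ± 0.09 (SE) and did not pass (limma adjusted p = 0.149). In array set 2 alone it was 0.33 ± 0.07 (SE, n = 3 per group) and passed (limma adjusted p = 0.0233).

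SPARC, also called osteonectin, is a collagen-binding protein abundant in bone. It read 10.72, 12.44, 12.51 and 12.42 in CDK9 siRNA arrays, against 11.42, 12.50, 12.58 and 12.52 in control arrays. The set 1 pair differed by -0.70, but in set 2 the groups overlapped and differed by -0.07. The overall difference of -0.23 ± 0.10 (SE, n = 4 per group) did not pass (limma adjusted p = 0.178). SPARC was the 1 gene of the 10 whose group difference differed between the array sets (-0.63, set 1 minus set 2, limma interaction adjusted p = 0.0304), and 2.14% of all genes passed that test. With dim genes left out, an alternative chosen after seeing the data, SPARC (adjusted p = 0.00884) and TNC (0.62, adjusted p = 0.0284) both passed it. The 5525 dim genes of the 18417 were then out, and 1309 of the rest passed, against 395 of all 18417. VCAN, the gene of versican and a dim one here, read 4.02, 5.41, 5.25 and 4.95 in CDK9 siRNA arrays, against 3.84, 5.97, 5.33 and 5.60 in control arrays. Its groups overlapped, its arrays varied most among the 10 genes (SD in set 2 of 0.23 in CDK9 siRNA and 0.32 in control siRNA arrays, n = 3 each), and the difference of -0.28 ± 0.16 (SE) did not pass (limma adjusted p = 0.314). The VCAN difference was -0.13 without control replicate 2, -0.16 without CDK9 siRNA replicate 4 and -0.43 without either replicate 1 array.

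**Figure D2:**
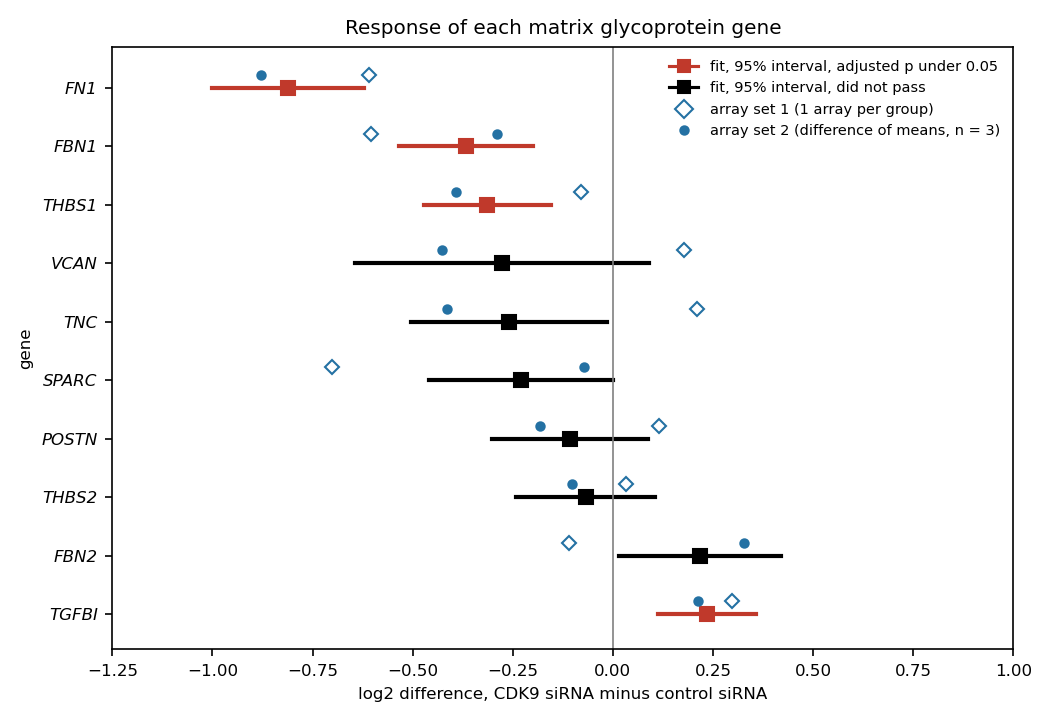
Log2 difference, CDK9 siRNA minus control siRNA (x axis), for each of the 10 genes (y axis), as squares with 95% confidence intervals from the set-blocked fit (red where the adjusted p is under 0.05), with open diamonds for array set 1 (1 array per group) and circles for array set 2 (difference of means, n = 3 per group). FN1, FBN1 and THBS1 lie left of 0 and TGFBI right of 0 in both sets, while TNC, THBS2, FBN2, VCAN and POSTN lie on opposite sides of 0 in the 2 sets.

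In array set 2 the groups of 3 did not overlap for 6 of the 10 genes, 4 lower and 2 higher. Over all genes it was 19.5% lower and 18.7% higher. In array set 2 alone 4 of the 10 passed as lower (FN1, TNC, THBS1 and FBN1) and 2 as higher (TGFBI and FBN2), where 8.57% and 9.52% of all genes did. When labels were permuted within array sets, gene by gene (exact test, two-sided), p was 0.05 for FN1, THBS1, TGFBI and FBN1, the smallest that the 40 arrangements allow, and 0.1 to 0.5 for the others.

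Related members were set against each other by the difference between their responses. FBN1 responded with a log2 difference lower by 0.59 than that of FBN2 (-0.49 in set 1, -0.62 in set 2). TGFBI responded with one higher by 0.34 than that of POSTN (0.18 in set 1, 0.40 in set 2), and THBS1 with one lower by 0.25 than that of THBS2 (-0.11 in set 1, -0.29 in set 2). The exact two-sided permutation test within array sets, adjusted over these 3 pairs, gave p = 0.075, 0.075 and 0.1. The 40 arrangements cannot give a p under 0.05, so none of the 3 could pass.

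Genes with values most like those of FN1 were ranked by Pearson r over the 8 arrays after the mean of each array set was subtracted, among genes that were not dim. They were the transcription factor SOX4 (r = 0.996, log2 difference -0.74), MEN1 (0.996, -0.20), the transcription factor TBX3 (0.995, -0.45), the protease inhibitor A2M (0.995, -1.01) and BASP1 (0.994, -0.24). For TGFBI they were NAV2 (r = 0.993, log2 difference 0.26), TCEANC2 (0.990, 0.23), the LIM protein CSRP1 (0.981, 0.45), DGKE (0.980, 0.46) and PRPS2 (0.979, 0.12, limma adjusted p = 0.164). These r values share the group difference and the arrays, and are descriptive.

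Among other matrix glycoproteins, 11 of 62 measured genes fell and 5 rose, with a median of 0.0025. Over all genes tested 7.47% fell and 6.73% rose by the same rule, for this list and those below. The largest falls were those of the microfibril-associated MFAP2 (-0.69), the latent TGF-beta binding protein LTBP1 (-0.63), the microfibril-associated MFAP5 (-0.58) and hemicentin HMCN1 (-0.53, dim). MFAP3 (0.72), also named as microfibril-associated, the filament-forming adaptor matrilin-2 MATN2 (0.58) and the basement membrane linker nidogen NID1 (0.39) rose most. MFAP2 read 8.15, 10.34, 10.25 and 10.26 in CDK9 siRNA arrays, against 8.84, 10.98, 11.05 and 10.88 in control arrays. Its set 2 groups did not overlap, and it differed by -0.70 in set 1, much as in set 2 (-0.69).

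Of 32 proteoglycan and hyaluronan genes, 8 fell and 0 rose in limma (1 was higher at an unadjusted p under 0.05, median -0.07), while 10 fell and 2 rose when set 2 was fitted alone. Leading the falls were testican SPOCK1 (-0.69), epiphycan EPYC (-0.68, dim), the hyaluronan synthase HAS2 (-0.64) and the hyaluronan link protein HAPLN3 (-0.59). The HAS2 difference was -0.02 for the set 1 pair, but -0.84 for set 2. Versican, which binds the hyaluronan that HAS2 makes, did not pass itself.

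Among 19 cell surface receptors of the 10 proteins, 2 fell and 2 rose (median -0.01), beside 7.47% and 6.73% of all genes. The integrin subunit ITGB3, which pairs with ITGAV as a receptor for fibronectin and other RGD proteins, rose by 0.73 (limma adjusted p = 0.000303). It read 5.76, 8.21, 8.37 and 8.43 in CDK9 siRNA arrays, against 4.89, 7.73, 7.63 and 7.61 in control arrays, higher in CDK9 siRNA in both sets, with no overlap in set 2. ITGB8 rose by 0.55, with -0.08 for the set 1 pair and 0.76 for set 2. The endocytic receptor LRP1, which takes up thrombospondin-1, fell by 0.48, and the urokinase receptor PLAUR fell by 0.21. The main fibronectin receptor subunits ITGA5 (-0.16, adjusted p = 0.199) and ITGB1 (0.05, adjusted p = 0.599) were among the 15 that did not pass. CD36 (dim) and CD47, the thrombospondin receptors, were also among them.

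**Figure D3:**
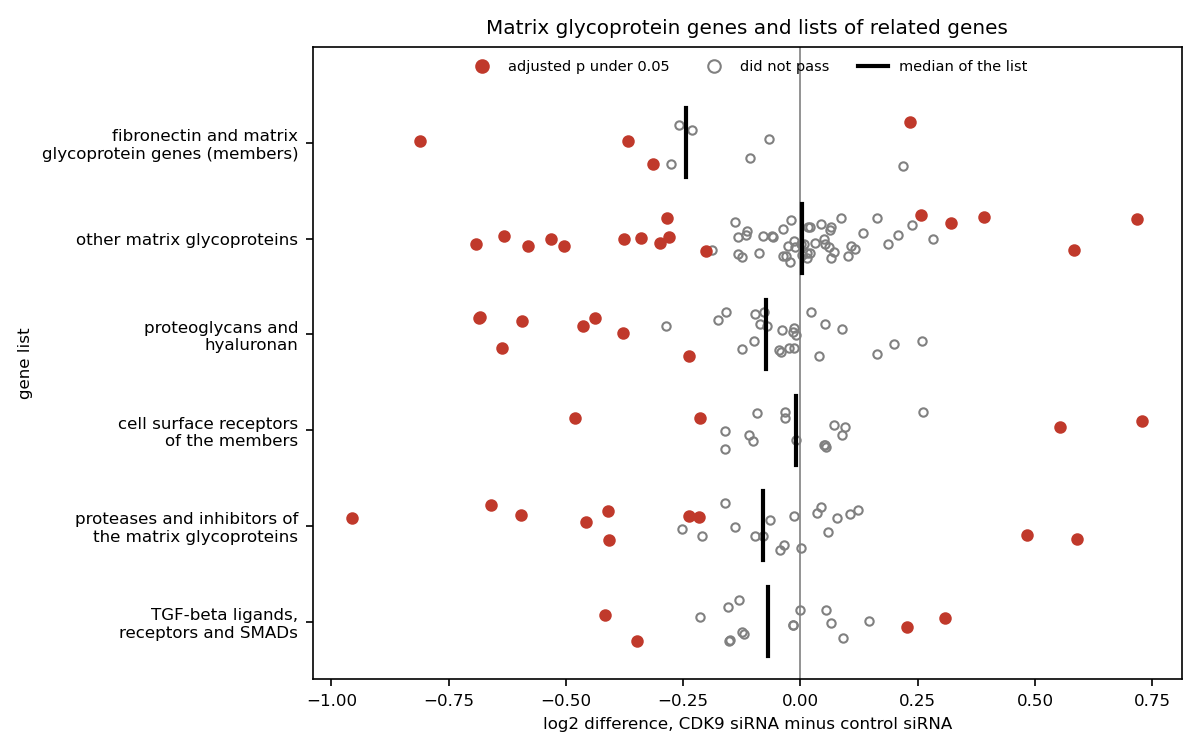
Log2 difference, CDK9 siRNA minus control siRNA (x axis), of every measured gene (points, jittered vertically) of the 10 matrix glycoprotein genes and of 5 related lists (y axis), filled red where the adjusted p is under 0.05, with a black line at each list's median. The 10 genes have their median at -0.24 (-0.02 in set 1 and -0.24 in set 2) and the 5 lists between -0.08 and 0.0025.

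Proteases and inhibitors that act on these proteins numbered 27, of which 8 fell and 2 rose (median -0.08). The gelatinase MMP2 (-0.96), the stromelysin MMP3 (-0.66), the serine protease FAP (-0.60, dim) and the versican-cleaving ADAMTS5 (-0.46, dim) fell most. The urokinase PLAU (0.59) and ADAMTS1 (0.48), which also cleaves versican, rose. The MMP3 difference was 0.04 for the set 1 pair, but -0.89 for set 2.

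Of 18 TGF-beta ligands, receptors and SMADs, 2 fell and 2 rose (median -0.07), beside 7.47% and 6.73% of all genes. TGFB1, the ligand that gave TGFBI its name, fell by 0.35 (limma adjusted p = 0.0016) while TGFBI rose. It read 8.44, 9.79, 9.85 and 9.85 in CDK9 siRNA arrays, against 8.81, 10.19, 10.18 and 10.15 in control arrays. The ubiquitin ligase SMURF2 fell by 0.42. The receptor TGFBR1 rose by 0.31 and SMAD4 by 0.23.

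Markers of fibroblasts and pericytes, which are mesenchymal cells like the line itself, also moved. Of 8 measured, FAP, LUM, PDGFRA and PDPN fell and PDGFRB and RGS5 rose, while DCN and THY1 did not pass. PDPN did not pass in array set 2 alone (limma adjusted p = 0.0592). The PDGFRB difference was 0.007 for the set 1 pair, but 0.42 for set 2. The summed log2 values of the 8 markers were 47.6 in the CDK9 siRNA array and 49.7 in the control array of set 1. In set 2 the sums ran from 61.8 to 62.0 in CDK9 siRNA arrays and from 62.3 to 63.0 in control arrays, with no overlap. FAP, PDGFRA and DCN were dim, and log2 array values have no zero. Their part in the fall of FN1, FBN1 and THBS1 was not tested. Of the osteoblast lineage and mesenchymal markers, RUNX2, MSX2, COL1A1 and VIM fell and SPP1 rose. Summed over the 12 measured, they were 75.9 in the CDK9 siRNA array and 75.1 in the control array of set 1. In set 2 they ran from 90.9 to 91.6 in CDK9 siRNA arrays and from 92.0 to 92.2 in control arrays, without overlap. The order of these sums was thus opposite in the 2 sets. In set 1 SPP1 alone was higher by 1.82 with CDK9 siRNA, which is more than the sums of that set differed. The markers that fell (RUNX2, MSX2, COL1A1 and VIM) were lower in both sets. Those that did not pass were higher in set 1 and lower in set 2. Of 6 epithelial markers EPCAM rose (dim), of 6 endothelial markers TEK rose (dim), and of 5 leukocyte markers 0 passed in limma, with 0 at an unadjusted p under 0.05. Summed epithelial markers were 32.3 in the CDK9 siRNA array and 32.4 in the control array of set 1, and ran from 40.5 to 41.1 in CDK9 siRNA arrays and from 39.8 to 40.7 in control arrays of set 2. Summed endothelial markers were 28.1 in the CDK9 siRNA array and 27.3 in the control array of set 1, and ran from 35.6 to 36.0 in CDK9 siRNA arrays and from 35.2 to 36.0 in control arrays of set 2.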

How the data were processed

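RNA of 8 U2OS cultures was measured on Affymetrix human gene arrays. The deposited table holds log2 expression values of 33297 probe sets. The submitters' processing notes name Affymetrix Expression Console 1.1, RMA, hg19 and limma, without saying which did what. RMA would put arrays processed in the same run on a common quantile scale, but the deposited columns were not on 1 scale, and the sources used here do not say which arrays shared a run. No sequencing depth applies, and the number of arrays limits the precision. An array fold tends to understate a change near the floor or the ceiling of the signal.

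Genes were named from the platform annotation (1 symbol for 19460 probe sets, several for 1754, none for 12083), and the probe set with the highest mean was kept per gene. Groups were taken from the titles. Numbers in the sample descriptions leave a gap between the replicate 1 arrays and the rest, which defined the array sets. Within each set the CDK9 siRNA arrays have the lower numbers and the control arrays the higher ones. Group and the order of these numbers therefore cannot be told apart. The comparison was run in R 4.3.3 with limma 3.58.1 (lmFit, eBayes). It was also run on simulated data, where only the recovery of 4-fold changes was required and no limit was set on false calls. Changes of the 10 genes were all smaller than that, so this check does not cover them. Intervals are not adjusted for the number of genes. Genes outside the 10 were named by a fixed rule: in each list, up to 4 falls and 3 rises of the largest size among those that passed, and the 5 genes most like FN1 and TGFBI. Values are also given for lineage markers, and ITGA5, ITGB1, CD36 and CD47 were added after their values were seen. The 10 genes, the lists and the block were chosen with earlier results of these data known. The genes not measured by a single-symbol probe set were not analysed here. Alternatives changed the block, the arrays, the normalization, the filter, the probe set rule and the variance model. Figures were drawn with Python 3.11.15 and matplotlib 3.10.9.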

Additional observations from a re-analysis of the deposited data

Results flagged for a closer look

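Within the groups of 4 arrays, each array's value was set on its own array median, and the gap between an extreme array and its nearest neighbour was divided by the group's range. That ratio passed Dixon's limit for 4 values in 5 of 20 groups of the 10 genes, each time in replicate 1. The limit's chance rate of about 1 in 20 holds for 4 arrays of the same kind. Replicate 1 is the other array set, and an array median does not remove a set offset that varies by gene. That rate therefore does not apply here, and the ratios only describe the offset of replicate 1. The ratio was 0.863 for THBS1 in CDK9 siRNA and 0.899 in control siRNA. It was 0.861 for TGFBI in CDK9 siRNA and 0.932 in control siRNA, and 0.833 for SPARC in CDK9 siRNA. Relative to the array median, THBS1 lay at 6.41 in CDK9 siRNA replicate 1, against 5.42 to 5.56 in the other CDK9 siRNA arrays, and at 6.54 in control replicate 1, against 5.83 to 5.91 in the other control arrays. TGFBI lay at 2.69 in CDK9 siRNA replicate 1, against 1.59 to 1.74, and at 2.43 in control replicate 1, against 1.38 to 1.45. SPARC lay at 4.87 in CDK9 siRNA replicate 1, against 5.41 to 5.52. On the deposited values, 9 of the 20 groups passed the limit.

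The group difference differed between the array sets for SPARC, by -0.63 (set 1 minus set 2, limma interaction adjusted p = 0.0304), and among the named related genes for ITGB8, by -0.84 (adjusted p = 0.0259). In array set 1 SPARC was lower by 0.70 with CDK9 siRNA, in a single pair of arrays.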

How the results depend on the processing

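Differences of all 10 genes kept their direction under every alternative run, but each alternative kept arrays of set 2 in both groups. In the set 1 pair by itself TNC, THBS2, POSTN, FBN2 and VCAN had the opposite direction. Of the 80 values with 1 array left out, 70 kept their side of the threshold, as did 81 of the 87 others. These are not all separate checks. Leaving out either replicate 1 array gives the same fit, which is counted again as array set 2 alone. Without a block limma passed 0 genes in either direction and 0 of the 10, while an unadjusted p under 0.05 was reached by 28 higher and 23 lower genes, among them 1 of the 10 (FN1, lower). The array set difference enters the residual of that fit. With a replicate block on the number in the titles, 813 genes passed as higher and 875 as lower, the call of none of the 10 changed (THBS1 adjusted p = 0.0496), and of the named related genes HAS2, PLAUR, ITGB8, MMP3, SMAD4, VIM, EPCAM, PDGFRB, PDPN and RGS5 did not pass (adjusted p of 0.0587 to 0.0841). Arrays share only that number: same-numbered arrays deviated together from their group means (correlation across genes of 0.822, 0.537, 0.494 and 0.607), but so did differently numbered arrays of set 2 (0.405 to 0.561), since these deviations hold the offset between the sets. Taken from the group means within set 2, the same-numbered correlations were 0.108, -0.011 and 0.170 and the others -0.175 to 0.076, and 4 of 6 arrays correlated best with their own number. In array set 2 alone 2 of the 10 passed as higher, TGFBI and FBN2. With 1 array left out, 714 to 1753 genes were higher and 806 to 1578 lower, and 0 to 2 of the 10 were higher and 2 to 4 lower. Counts over all genes moved by over 1.5 times without CDK9 siRNA replicate 3 (771 higher, 883 lower), control replicate 2 (796 higher), control replicate 3 (714 higher, 806 lower) or control replicate 4 (814 higher, 871 lower). FN1 and FBN1 passed each time, with adjusted p of 0.00124 to 0.00284 for FN1 and 0.0149 to 0.0413 for FBN1. Without either replicate 1 array TNC and FBN2 passed, which is the fit on array set 2. At 1.5-fold or more, 105 genes were higher and 138 lower, with 0 and 1 (FN1) of the 10. Dim genes were 5525 of the 18417 and 3 of the 10. The group difference differed between the array sets for 395 genes and 1 of the 10 with dim genes kept. With them left out it did for 1309 genes and 2 of the 10 (SPARC and TNC). That alternative was chosen after seeing the data, as were the others for that test and for the related pairs, and the cause was not tested. The number of arrays limits small changes: a single pair in array set 1 has no spread of its own.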
